A study of Mus musculus with 6 samples.

Results

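The ligands and receptors of the interleukin-1 (IL-1) family were followed through the first week of bone repair in mouse periosteum, the cell layer on the outside of bone. Members were chosen by gene symbol, 9 of the 30406 genes listed for every library: the ligands Il1a, Il1b and Il33, the antagonist Il1rn, and the receptors Il1r1, Il1r2, Il1rl1, Il1rl2 and Il1rap. The assay was single-nucleus RNA sequencing, in which transcripts of isolated nuclei are counted as unique molecular identifiers (UMIs). All 6 libraries came from C57BL6 mice (C57BL/6ScNj in the study's methods) aged 12 weeks: 2 libraries of uninjured tibial periosteum (4 mice pooled in each) and, from mice with an open tibial fracture, 2 libraries on day 3, 1 on day 5 and 1 on day 7 after fracture (4 to 9 mice pooled). Fracture libraries held the injured periosteum together with the hematoma, the clot at the fracture site, so that injury and the added tissue cannot be told apart. Pools were separate samples by their labels, but days 5 and 7 had no replicate and were given as values without a test. After filtering and removal of myogenic nuclei, 6071 nuclei remained, with 351 to 2104 per library and 13722 UMIs of the 9 members among 23105104.

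IL-1α, encoded by Il1a, and IL-1β, encoded by Il1b, are alarm cytokines released by damaged cells and by activated myeloid cells. They bind IL1R1, encoded by Il1r1, which then recruits the shared accessory chain IL1RAP, encoded by Il1rap, and signals through MyD88 to NF-κB. Il1r2 encodes a decoy receptor without a signalling domain, and Il1rn encodes the receptor antagonist. IL-33, encoded by Il33, is a nuclear alarmin of stromal and endothelial cells that signals through ST2, the product of Il1rl1, and IL-36 cytokines signal through the product of Il1rl2. IL-1 is among the earliest inflammatory signals of a fracture, and stromal cells respond to it with neutrophil- and monocyte-attracting chemokines.

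In the GENCODE M21 annotation of mm10, 4 of the 5 receptor genes lay next to each other on the plus strand of chromosome 1. Il1r2 (chr1:40074079-40125231), Il1r1 (chr1:40225080-40317257), Il1rl2 (chr1:40324610-40367562) and Il1rl1 (chr1:40429570-40465415) followed in this order within 391337 bases. Il1rap lay on chromosome 16 (chr16:26581704-26730117), and Il33 on chromosome 19 (chr19:29925114-29960718). Il1a (chr2:129299610-129309972) and Il1b (chr2:129364570-129371139) were neighbours on the minus strand of chromosome 2, and Il1rn lay apart from them on the plus strand (chr2:24336853-24351494). Il1b is overlapped on the opposite strand by Il1bos, Il1a by Gm14023, Il1r2 by Gm16894 and Il1rap by Gm20319, and Il1r1, Il1r2 and Il1rl2 each overlap a predicted gene on their own strand (Gm38070, Gm37347 and Gm17970). Whether counting used strand is not given in the sources used here, so reads of these pairs could have been exchanged.

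All 9 members matched the RefSeq promoter table of GRCm38.p6, with 14 start sites between them. The 250 bases before the start are shown for the 4 members whose levels stood out after fracture: the neighbours Il1r1 and Il1rl2, which moved in opposite directions in stromal nuclei, and Il1b and Il1r2, which peaked in the same neutrophil-like population. Capitals mark matches, on either strand, to TATAAA (a core promoter box), TGANTCA (AP-1), the kappaB motif (GGG and CC with 5 free bases between them), CACGTG (E-box), TTGCNNAA (C/EBP) and TTCNNNGAA (STAT), where N is any base.
Il1b, chr2:129371140-129371389, minus strand: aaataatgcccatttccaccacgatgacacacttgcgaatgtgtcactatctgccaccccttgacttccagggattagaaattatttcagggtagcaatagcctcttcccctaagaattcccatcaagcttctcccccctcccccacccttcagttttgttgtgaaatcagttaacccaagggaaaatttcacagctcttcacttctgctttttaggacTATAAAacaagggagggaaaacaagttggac
Il1r2, chr1:40085843-40086092, plus strand: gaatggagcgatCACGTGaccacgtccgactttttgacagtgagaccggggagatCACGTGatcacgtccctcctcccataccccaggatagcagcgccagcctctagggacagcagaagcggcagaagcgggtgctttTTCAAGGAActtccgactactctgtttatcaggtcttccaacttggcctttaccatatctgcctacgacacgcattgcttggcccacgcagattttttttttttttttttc
Il1r1, first of 2 listed starts, chr1:40224830-40225079, plus strand: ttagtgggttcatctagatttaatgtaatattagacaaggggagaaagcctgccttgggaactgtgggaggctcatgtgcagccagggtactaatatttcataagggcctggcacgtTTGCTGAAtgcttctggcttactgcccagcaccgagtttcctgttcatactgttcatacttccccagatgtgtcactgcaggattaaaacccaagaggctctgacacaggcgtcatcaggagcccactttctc
Il1rl2, chr1:40324339-40324588, plus strand: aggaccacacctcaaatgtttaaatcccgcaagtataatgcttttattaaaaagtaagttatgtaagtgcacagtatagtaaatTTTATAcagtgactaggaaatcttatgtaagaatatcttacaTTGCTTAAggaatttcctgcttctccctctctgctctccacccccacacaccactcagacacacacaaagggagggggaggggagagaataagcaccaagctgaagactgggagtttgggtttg
The Il1b window held a TATAAA beginning 31 bases before the start. In the Il1r2 window CACGTG stood at 238 and 195 bases before the start and TTCAAGGAA at 111. The Il1r1 window held TTGCTGAA at 133 bases, and the Il1rl2 window held TTTATA, the reverse complement of TATAAA, at 166 and TTGCTTAA at 124. None of the matches shown overlapped another. The RefSeq start of Il1r2 lies inside the GENCODE gene, downstream of its first base. Among 32851 promoter windows of the same length, 12.4% held TATAAA, 6.75% TGANTCA, 45.8% the kappaB motif, 6.02% CACGTG, 9.56% TTGCNNAA and 7.02% TTCNNNGAA, and the matches are a description of the letters only.

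Library depth was uneven. Nuclei kept for analysis held 900335 UMIs in day 3 library 1 and 8461856 in the day 5 library. The immune nuclei of uninjured library 1 numbered 17, with 9930 UMIs. In day 3 library 2, 393 of 4712 barcodes exceeded the upper limit of 5000 genes, and they held 49.5% of that library's UMIs and 64.2% of its Il1r1 UMIs. In the day 7 library, 2107 of 3448 barcodes fell, under a looser filter, into unnamed clusters. These clusters were led by neural genes (Dcc and Cadps, or Ttr and Trpm3) or by Gapdh, Rps2, Rpl29 and Lhx2. Of these barcodes, 21 passed the filter used here. Libraries also differed in software: Cell Ranger 6.0.0 made uninjured library 1 and the day 5 and day 7 libraries, 7.1.0 the other 3, and only uninjured library 2 and day 3 library 2 shared version and gene list. Population names come from markers, as "-like" names, and a large unnamed stromal cluster of 776 nuclei is called Fgf7/Bmper after its leading genes. Members and pathway genes, 95 in all, were kept out of the clustering. Defining markers were found where the names require them (Vwf at 1284 CPM in venous endothelium-like nuclei and 21.8 CPM elsewhere), but Ly6g had 4 UMIs in neutrophil-like nuclei and Lyve1 stood at 4.91 CPM in Mrc1-high macrophage-like nuclei against 3.86 CPM elsewhere. Libraries shared 18 barcodes.

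Il1r1, the signalling receptor for IL-1, rose in stromal nuclei on day 3. Summed over stromal nuclei (fibroblast, stem and progenitor, fibrogenic, tendon, bone and cartilage populations), its level in UMIs per 1000000 UMIs counted (CPM) was 133 and 389 in the uninjured libraries, 1587 and 1323 in the day 3 libraries, 280 on day 5 and 216 on day 7. Both day 3 libraries lay above every other library, and the day 5 and day 7 levels lay between those of the uninjured libraries. The means were 261 ± 181 CPM (SD, n = 2) uninjured and 1455 ± 187 CPM (SD, n = 2) on day 3. The log2 fold change was 2.42 ± 0.52 (SE), with an adjusted p of 0.0232 by edgeR's quasi-likelihood test over 10033 genes. Within the pair made with the same software and gene list, the level was 389 CPM uninjured and 1323 CPM on day 3. The stromal sum did not have the same makeup in both groups: Fgf7/Bmper nuclei were 37.1% and 31.6% of stromal nuclei in the uninjured and 59.6% and 56.5% in the day 3 libraries, and SSPC-like nuclei were 25.8% and 23.7% against 10.3% and 12.0%. The sum also held an unnamed cluster led by Gm42418. It made up 5.82% of stromal nuclei on day 5 and 13.3% on day 7, and at most 0.771% in the uninjured and day 3 libraries. P-values measure the spread between these pools only, and 4 libraries in groups of 2 cannot give an exact permutation p below 0.3333.

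Within the stroma, Il1r1 was highest on day 3 in several populations. In Fgf7/Bmper nuclei, which held 45.9% of all Il1r1 UMIs, the level was 206 and 727 CPM in the uninjured libraries, 1772 (95% exact Poisson interval 1621 to 1933) and 1721 (1647 to 1797) on day 3, 761 on day 5 and 582 on day 7. For these nuclei alone the log2 fold change was 1.87 ± 0.56 (SE) with an adjusted p of 0.0651 by edgeR, which did not pass. Il1r1 was itself among their leading genes although it had been left out of the clustering. The SSPC-like cluster was named by Pi16 and Dpp4, markers of skeletal stem/progenitor cells. The name fits its uninjured nuclei (Pi16 at 2937 and 927 CPM, Dpp4 at 754 and 925 CPM) better than those of day 3, in which Pi16 stood at 66.7 and 184 CPM and Dpp4 was found in 1 of 15 and 2 of 35 nuclei. In this cluster the Il1r1 level was 241 and 412 CPM uninjured, 4049 and 1686 on day 3, 688 on day 5 and 479 on day 7. SSPC-like nuclei alone passed the test, with a log2 fold change of 3.04 ± 0.63 (SE) and an adjusted p of 0.0201 by edgeR. The value of 4049 CPM rests on 15 nuclei and depends on which nuclei were assigned: it became 1690 at a clustering resolution of 0.8, 1575 under the looser filter and 1425 without an upper limit on genes, while that of Fgf7/Bmper nuclei in the same library became 3007, 2545 and 3765 CPM. Intervals here and elsewhere cover counting error only.

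In tendon-like and IIFC-like nuclei the level was lower than in Fgf7/Bmper nuclei and again highest on day 3. In tendon-like nuclei, marked by Tnmd and Mkx, it was 68.3 CPM in uninjured library 2, 570 and 369 on day 3, 158 on day 5 and 162 on day 7. IIFC-like nuclei, named after the study's injury-induced fibrogenic cells and marked by Postn and Aspn, held 92.5 CPM (2 UMIs) in uninjured library 2, 277 (9 UMIs) and 900 CPM on day 3, 153 on day 5 and 141 on day 7. This cluster held 8 and 19 nuclei on day 3. The Fgf7/Bmper cluster was left unnamed because another class had more markers among its leading genes, which include the fibroblast markers Bmper and Pdgfra. It made up 10.4% and 14.7% of nuclei in the uninjured libraries. By marker score it was still closest to the IIFC class, with 6 markers detected. IIFC-like levels on day 3 may therefore not stand for all cells that the study calls fibrogenic. Osteoblast-like nuclei held 66.1 CPM (10 UMIs) in uninjured library 2 and 129 (3 UMIs) and 73.4 CPM (10 UMIs) on day 3, with overlapping intervals. Fibroblast-like nuclei held 21.2 and 112 CPM uninjured and too few nuclei on day 3 (3 and 5), and chondrocyte-like nuclei were present mainly on days 5 and 7, at 62.5 and 82.9 CPM. Adipocyte-like nuclei, which are outside the stromal sum, held 56.3 and 154 CPM uninjured and 455 on day 5, while their day 3 levels of 2207 and 1396 CPM come from sums under 20000 UMIs. In macrophages the receptor was low: Mrc1-high macrophage-like nuclei reached 15.2 CPM at most in the uninjured and day 3 libraries, 12.6 on day 5 and 37.6 (2 UMIs) on day 7.

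**Figure D1:**
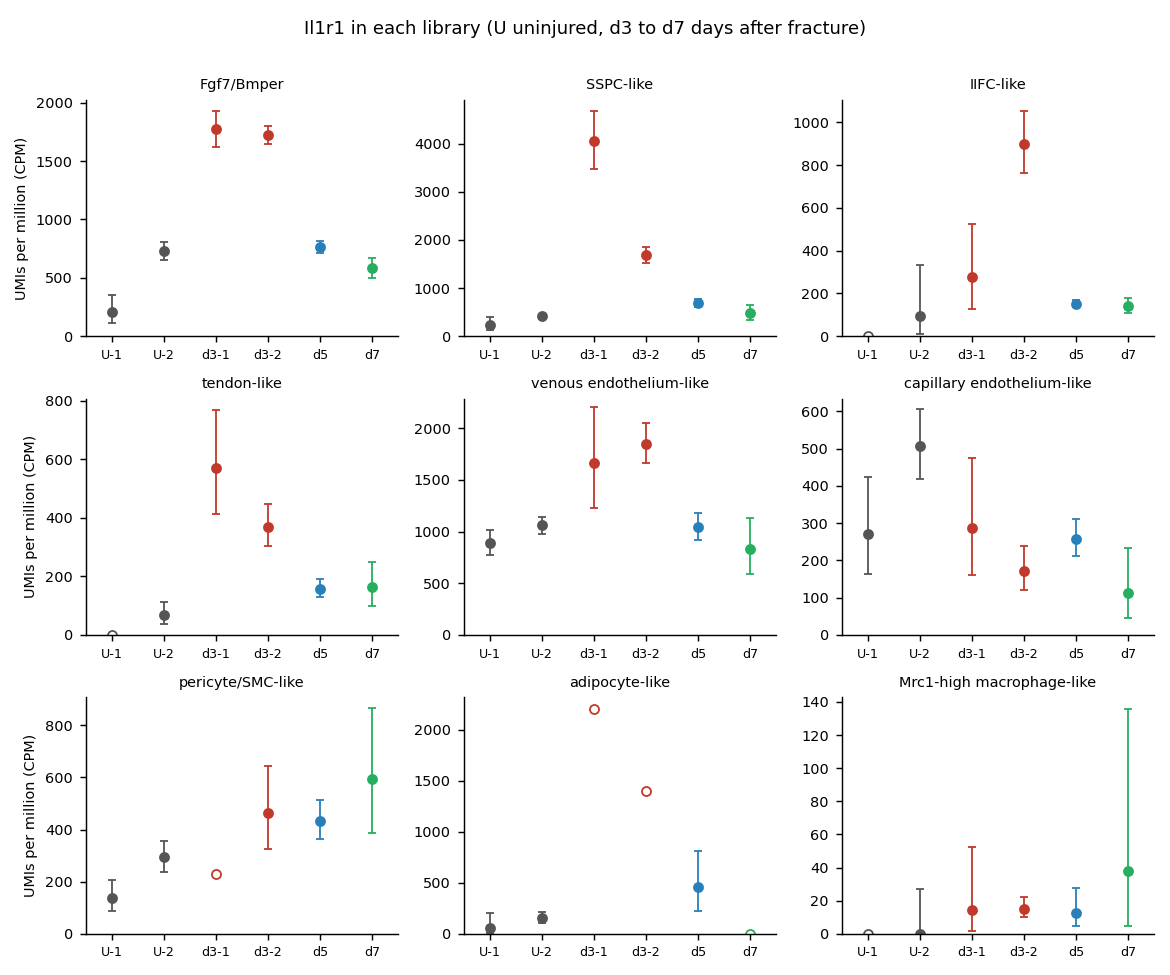
Il1r1 level in 9 populations, in UMIs per 1000000 (CPM), for each library (U-1 and U-2 uninjured, d3-1 and d3-2 day 3, d5 day 5, d7 day 7). Error bars are 95% exact Poisson intervals and open points are sums under 20000 UMIs, drawn without intervals. In Fgf7/Bmper nuclei the day 3 libraries sit at 1772 and 1721, above the other libraries, and in capillary endothelium-like nuclei they sit at 287 and 172, overlapping the uninjured 271 and 506. Axes differ between panels.

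The share of nuclei with an Il1r1 UMI was highest on day 3 too. With every nucleus thinned to 500 UMIs, an Il1r1 UMI was found in 6.12% and 28.5% of Fgf7/Bmper nuclei in the uninjured libraries, 46.0% (95% Clopper-Pearson interval 35.2 to 57.0) and 53.9% (46.0 to 61.7) on day 3, 26.3% on day 5 and 18.5% on day 7. Without thinning the shares were 20.4%, 61.0%, 83.9%, 92.1%, 73.3% and 48.1%, at median depths of 857, 2540, 2374, 6007, 3995 and 1706 UMIs. Mrc1-high macrophage-like nuclei, taken as background, had thinned shares of 1.52% and 0.909% on day 3, with median depths of 1785 and 7470.5 UMIs and unthinned shares of 3.03% and 10.9%. The Fgf7/Bmper shares were above this background in both day 3 libraries, and the day 3 shares lay above those of the other libraries.

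Venous endothelium-like nuclei, the Vwf, Selp and Ackr1 population through which leukocytes leave the blood, carried Il1r1 before injury. Their level was 887 and 1060 CPM in the uninjured libraries, 1663 and 1849 on day 3, 1042 on day 5 and 827 on day 7. Venous nuclei held 73.4% of all Il1r1 UMIs in uninjured library 1 and 40.5% in uninjured library 2, against 5.42% and 11.1% on day 3. Their number moved with this share: they were 16.6% and 11.0% of nuclei uninjured and 3.42% and 2.07% (12 and 25 nuclei) on day 3. The day 3 levels stood above those of the other libraries, but the change in venous nuclei alone did not pass (log2 fold change 0.79 ± 0.28 SE, edgeR adjusted p = 0.271). Capillary endothelium-like nuclei held 271 and 506 CPM uninjured and 287 and 172 CPM on day 3, so that these groups overlapped.

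Over all endothelial nuclei, Il1r1 was 568 and 653 CPM uninjured and 747 and 824 CPM on day 3, and the log2 fold change of 0.27 ± 0.26 (SE) did not pass (edgeR adjusted p = 0.686). The difference between the endothelial and the stromal change was tested with an interaction term and passed, at −2.31 ± 0.41 (SE) on the log2 scale with an edgeR adjusted p of 0.00031. It passed in all 12 alternatives that were run. Of 8916 genes tested for this difference, 4.69% passed, 2.58% with a higher and 2.11% with a lower endothelial change. Among the members, 3 of the 5 tested passed (Il1r2 higher, Il1r1 and Il33 lower). Il1r2 and Il33 did not pass the low-count filter in endothelial nuclei alone, so their endothelial side rests on few UMIs.

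Among populations with at least 20000 UMIs per sum, the order of mean Il1r1 levels in uninjured tissue was venous endothelium-like (974 CPM), Fgf7/Bmper (467), capillary endothelium-like (388), SSPC-like (326) and pericyte/SMC-like nuclei (216). Venous nuclei stood above the others in both libraries, while the ranges of neighbours further down overlapped. At day 3 the order was SSPC-like (2868), venous (1756), Fgf7/Bmper (1746), IIFC-like (588) and tendon-like nuclei (470), and the first 3 overlapped in their ranges. The first place of SSPC-like nuclei rests on the 4049 CPM of 15 nuclei and is not kept where that value falls to 1690 CPM or below. By the likeness of pattern over 89 population-by-library sums, the genes closest to Il1r1 among 9935 were Asap3 (Pearson r = 0.68), Osmr (0.67), which encodes the oncostatin M receptor, and Il6st (0.65), which encodes its gp130 partner. Sums of one library share depth and free RNA, so these coefficients are a description.

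Il1rl2, the IL-36 receptor and the direct downstream neighbour of Il1r1 on chromosome 1, moved the other way in stromal nuclei. Its level was 107 and 231 CPM in the uninjured libraries, 57.6 and 57.5 on day 3, 27.4 on day 5 and 36.5 on day 7. Every fracture library lay below both uninjured libraries, and within the pair of the same software and gene list the level was 231 CPM uninjured and 57.5 CPM on day 3. The log2 fold change was −1.67 ± 0.43 (SE), with an edgeR adjusted p of 0.0439. With 1 library left out it ran from −2.06 to −0.94. The call was lost without uninjured library 2 (adjusted p = 0.359), without day 3 library 2 (0.116), with the 6% of nuclei of highest doublet score removed (0.0511) and with DESeq2 (0.0542).

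SSPC-like nuclei held 22 and 295 Il1rl2 UMIs in the uninjured libraries, or 84.6% and 72.5% of all Il1rl2 UMIs there, and their smaller share of the day 3 stromal sum moves with this decrease. In SSPC-like nuclei alone, Il1rl2 fell by 4.05 ± 0.67 (SE) on the log2 scale with an edgeR adjusted p of 0.00674. Their levels were 353 (22 UMIs) and 555 CPM (295 UMIs) uninjured, 0 and 38.5 CPM (9 UMIs) on day 3, 47.4 on day 5 and 132 on day 7. The marker Dpp4 was also lower in this cluster, at 754 and 925 CPM uninjured and 22.2 and 12.8 CPM on day 3. A change within the same cells and a change of the cells given this name cannot be told apart. After thinning, 17.6% and 21.7% of SSPC-like nuclei carried an Il1rl2 UMI in uninjured tissue, against 0 of 15 nuclei, which at this depth allows a share of up to 20.0%, and 2.86% on day 3. In Fgf7/Bmper nuclei the levels were 47.5 and 161 CPM uninjured, 84.2 and 77.5 on day 3, 49.3 on day 5 and 82.3 on day 7, and the groups overlapped (log2 fold change −0.59 ± 0.52 SE, adjusted p = 0.598 by edgeR). The genes nearest to Il1rl2 in pattern were Lmx1a (r = 0.64), Agtr1a (0.61) and Col14a1 (0.60).

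Il33 had no change that passed in stromal nuclei. Its level was 47.2 and 72.0 CPM uninjured, 149 and 73.8 on day 3, 27.7 on day 5 and 18.0 on day 7, with a log2 fold change of 0.81 ± 0.50 (SE, edgeR adjusted p = 0.414). Fgf7/Bmper nuclei held 15.8 and 37.4 CPM uninjured, 91.2 and 98.3 on day 3, 68.9 on day 5 and 31.7 on day 7, so that the day 3 libraries lay above the uninjured ones, with an adjusted p of 0.123 by edgeR for these nuclei alone. In SSPC-like nuclei, the level of 845 CPM in day 3 library 1 came from 38 UMIs, 23 of them in 1 nucleus, and it became 33.1 to 267 CPM under other filters and resolutions. Tendon-like nuclei of uninjured library 2 held 231 CPM (54 UMIs, 43 of them in 1 nucleus), more than on day 3 (26.5 and 17.1 CPM). In pattern Il33 was closest to Thbs4 (r = 0.71), a tendon matrix gene, Pknox2 (0.66) and Steap2 (0.66).

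In endothelial nuclei Il33 was found in the uninjured libraries and not on day 3. There were 14 UMIs in each uninjured library and 0 in each day 3 library. Pooled over libraries and set against a floor of 3 UMIs over the group, the level was at least 3.40-fold lower on day 3. Nearly all of the uninjured UMIs, 14 and 13, were in venous nuclei. The difference from the stromal change passed, at −7.30 ± 1.83 (SE) on the log2 scale with an edgeR adjusted p of 0.0108, a fitted value that depends on the prior count. It did not pass with DESeq2 (adjusted p = 0.0891) or without day 3 library 2 (0.16). At day 3, 39 and 65 endothelial nuclei were available. Il33 did not pass the low-count filter in endothelial nuclei alone, so its endothelial change was not tested by itself.

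Il1rl1, the receptor for IL-33, was sparse, with 166 UMIs in all. Stromal nuclei held 1 UMI in each uninjured library, 22 and 31 on day 3, 43 on day 5 and 2 on day 7. The log2 fold change on day 3 was 4.55 ± 1.21 (SE), and its edgeR adjusted p of 0.0514 did not pass, although it passed in 8 of 12 alternatives. Fgf7/Bmper nuclei held 49.1 and 12.5 CPM on day 3 against 0 UMIs in the uninjured libraries, and IIFC-like nuclei held 29 UMIs (12.7 CPM) on day 5. Among immune nuclei, 16 UMIs in 4 Ccr2 monocyte/APC-like nuclei of uninjured library 2 (192 CPM) stood beside 3 UMIs in 135 such nuclei of day 3 library 2 (4.73 CPM). The immune change of −3.92 ± 1.19 on the log2 scale (SE) had an edgeR adjusted p of 0.0941. In pattern Il1rl1 was closest to Il18rap (r = 0.68), Grap2 (0.65) and Cd226 (0.56), which lymphoid cells are known to use.

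**Figure D2:**
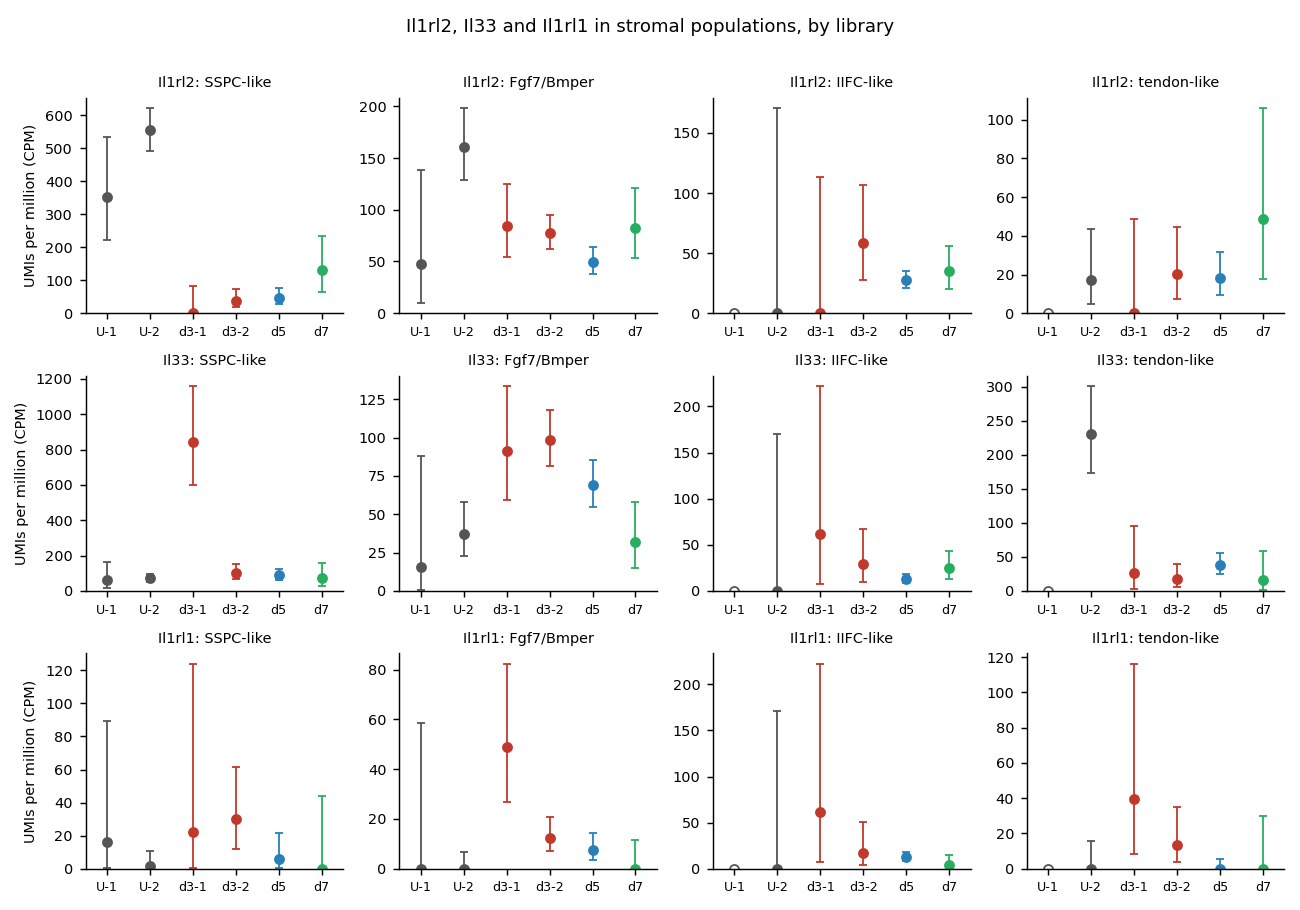
Levels of Il1rl2, Il33 and Il1rl1, in UMIs per 1000000 (CPM), in 4 stromal populations for each library (U-1 and U-2 uninjured, d3-1 and d3-2 day 3, d5, d7). Error bars are 95% exact Poisson intervals and open points are sums under 20000 UMIs. Il1rl2 in SSPC-like nuclei stands at 353 and 555 in the uninjured libraries and at 0 and 38.5 on day 3. The markers Pi16 and Dpp4 were also lower in this cluster on day 3. Axes differ between panels.

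Across the tested members, 6 of 9 passed the low-count filter in stromal nuclei, and 1 was called higher (Il1r1) and 1 lower (Il1rl2). Of all 10033 genes tested there, 8.34% were called, 3.49% higher and 4.85% lower. Il1a, Il1b and Il1rn were not tested in stromal nuclei. Il1rap, the accessory chain, was 60.1 and 103 CPM uninjured and 29.9 and 45.1 CPM on day 3, with a log2 fold change of −1.23 ± 0.42 (SE) that did not pass (edgeR adjusted p = 0.122). Its stromal levels on days 5 and 7 were 41.2 and 39.4 CPM, below both uninjured libraries.

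**Figure D3:**
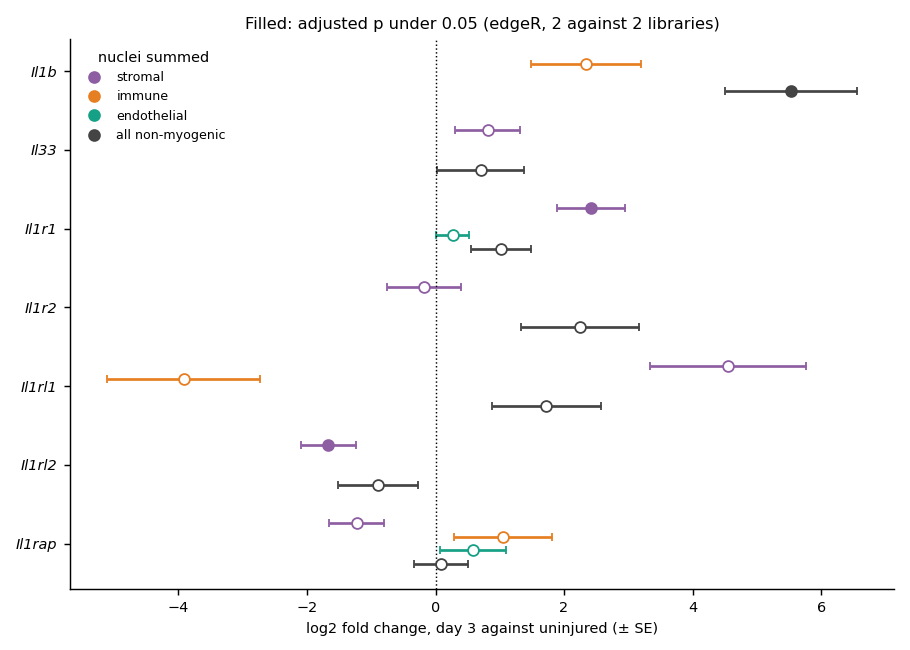
Log2 fold change of each tested member on day 3 against uninjured (2 against 2 libraries), with the SE as error bar, for nuclei summed over stromal, immune, endothelial and all non-myogenic populations. Filled points had an edgeR adjusted p under 0.05: Il1r1 (2.42) and Il1rl2 (−1.67) in stromal nuclei and Il1b (5.53) in all non-myogenic nuclei.

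Il1b rose when all non-myogenic nuclei were summed. Its UMIs numbered 0 and 7 in the uninjured libraries, 19 and 755 on day 3, 56 on day 5 and 1 on day 7. The corresponding levels were 0 and 1.82 CPM, 21.1 and 109 CPM, 6.62 CPM and 0.485 CPM, and both day 3 libraries lay above the others. The log2 fold change was 5.53 ± 1.03 (SE) with an edgeR adjusted p of 0.0344 over 12604 genes, of which 2.69% were called higher. Within the pair of the same software and gene list the level was 1.82 CPM uninjured and 109 CPM on day 3. The call was lost without uninjured library 1 (adjusted p = 0.0797) and without day 3 library 2 (0.138), and the log2 fold change ran from 4.13 to 10.61 with 1 library left out. It held with neutrophil-like nuclei left out, at 4.81 ± 0.82 (SE) and an edgeR adjusted p of 0.0287. That alternative kept the other immune nuclei. Immune nuclei, with neutrophil-like ones counted, were 3.617% and 8.503% of nuclei in the uninjured and 41.03% and 67.66% in the day 3 libraries. In sums over all non-myogenic nuclei, with or without neutrophil-like ones, more cells of a type and more RNA per cell cannot be told apart.

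Most of the Il1b of day 3 library 2 was in neutrophil-like nuclei, which held 395 of the 755 Il1b UMIs of day 3 library 2, or 52.3%, at 879 CPM (95% exact Poisson interval 794 to 970). This population came mostly from that library, with 253 of 296 nuclei, and Il1b and Il1r2 were among its leading genes although both were left out of the clustering. In the 8 neutrophil-like nuclei of day 3 library 1 no Il1b UMI was counted, which at 20545 UMIs allows up to 146 CPM. Of the 7 neutrophil markers fixed for naming (Csf3r, S100a8, S100a9, Cxcr2, Mmp8, Ly6g and Retnlg), all were detected in day 3 library 2, 2 in day 3 library 1, and none in the nuclei given this name in uninjured library 1 and on day 7.

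Monocyte and antigen-presenting populations carried Il1b in more libraries. Ccr2 monocyte/APC-like nuclei held 84.1 CPM (7 UMIs, all in 1 nucleus) in uninjured library 2, 198 (10 UMIs, 7 in 1 nucleus) and 252 on day 3, 118 on day 5 and 48.0 (1 UMI) on day 7. The Poisson intervals of uninjured library 2 (33.8 to 173) and day 3 library 1 (94.9 to 364) overlapped. Flt3/H2-Aa APC-like nuclei, with dendritic cell markers, held 112 CPM in day 3 library 2 and 116 on day 5. In Mrc1-high macrophage-like nuclei the level was 36.1 and 25.6 CPM on day 3 and 31.5 on day 5, and Arg1/Gpnmb macrophage-like nuclei held 58.2 CPM in day 3 library 2 (44 UMIs, 19 in 1 nucleus) and 0 UMIs in day 3 library 1. Over all immune nuclei the log2 fold change was 2.34 ± 0.86 (SE), which did not pass (edgeR adjusted p = 0.306) and ran from 1.32 to 10.47 with 1 library left out. The neutrophil markers summed to 0 and 362 CPM in the uninjured and 90.9 and 1163 CPM in the day 3 immune nuclei, so that the groups overlapped, and their part in the immune Il1b was not tested.

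Thinned to 500 UMIs, 28.9% (95% Clopper-Pearson interval 23.4 to 34.9) of neutrophil-like nuclei in day 3 library 2 carried an Il1b UMI, at a median depth of 1443 UMIs. In Fgf7/Bmper nuclei of the same library, taken as background, the share was 1.82% (0.377 to 5.22) at a median depth of 6007. In its 117 myogenic-like nuclei, which were left out of the sums, it was higher, at 5.98% (2.44 to 11.9) and a median depth of 615. Unthinned shares were 45.5% in neutrophil-like, 9.70% in Fgf7/Bmper and 8.55% in myogenic-like nuclei. The stromal nuclei of that library held 43 Il1b UMIs, at 20.6 CPM, and the 7 neutrophil markers summed to 142 CPM there, against 8.58 and 5.31 CPM in the uninjured and 17.1 CPM in the other day 3 stromal sum. What RNA from neutrophil-like or other immune nuclei contributed to the stromal Il1b was not tested. The genes most like Il1b in pattern were Sorl1 (r = 0.83), Cd244a (0.82) and Klra2 (0.80).

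Il1r2, the decoy receptor, was highest in the same neutrophil-like nuclei of day 3 library 2, at 701 CPM (315 UMIs, 57.7% of the Il1r2 UMIs of that library). A UMI was found in 27.3% of them after thinning (95% Clopper-Pearson interval 21.9 to 33.2), against 0 of 165 Fgf7/Bmper nuclei, which at this thinned depth allows up to 1.82% of nuclei with a UMI. In the 117 myogenic-like nuclei of that library the thinned share was 4.27% (1.40 to 9.69). At full depth the shares were 50.2% in neutrophil-like, 6.67% in Fgf7/Bmper and 5.13% in myogenic-like nuclei. Flt3/H2-Aa APC-like nuclei held 132 CPM in day 3 library 2 and 272 CPM on day 5, and Ccr2 monocyte/APC-like nuclei held 89.8 CPM in day 3 library 2 but 0 UMIs in day 3 library 1. Over all non-myogenic nuclei the UMIs were 4 and 47 uninjured and 8 and 546 on day 3, at 4.39 and 12.2 against 8.89 and 79.0 CPM, so that the groups overlapped (log2 fold change 2.24 ± 0.92 SE, edgeR adjusted p = 0.197). Its nearest genes in pattern were Il1b (r = 0.68), Mirt1 (0.66) and H2-Ab1 (0.64).

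Before injury, Il1r2 was low and most of its UMIs were in stromal nuclei, 4 of 4 and 42 of 47. SSPC-like nuclei held 30 of the 47 Il1r2 UMIs of uninjured library 2 (56.4 CPM) and Fgf7/Bmper nuclei 11 (20.6 CPM), and uninjured library 1 held 1 and 3 UMIs. SSPC-like nuclei held 0 and 2 UMIs on day 3 and 0 on days 5 and 7. Summed over stromal nuclei, the level was 17.2 and 24.8 CPM uninjured and 12.8 and 26.8 CPM on day 3. In osteoblast-like nuclei of day 3 library 2, 23 of 24 UMIs were in 1 nucleus. Endothelial nuclei held 0 and 2 UMIs uninjured and 1 and 17 on day 3, and the endothelial change differed from the stromal one by 4.28 ± 1.20 (SE) on the log2 scale, with an edgeR adjusted p of 0.0269. This call was lost without uninjured library 2 (6.84 on the log2 scale, adjusted p = 0.285) and without day 3 library 2 (3.53, 0.761), and DESeq2 gave no adjusted p for it (unadjusted p = 0.0127). The neutrophil markers summed to 2.37 and 5.84 CPM in the uninjured and 43.3 and 90.2 CPM in the day 3 endothelial nuclei, and their part in this difference was not tested.

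Il1rap was the most widely spread receptor chain, with no population above 13.8% of its UMIs. Neutrophil-like nuclei of day 3 library 2 held 481 CPM (216 UMIs), Flt3/H2-Aa APC-like nuclei 99.1 CPM in that library and 242 on day 5, and Ccr2 monocyte/APC-like nuclei 48.1 CPM in uninjured library 2, 119 and 158 on day 3 and 112 on day 5. In SSPC-like nuclei the level was 48.1 and 167 CPM uninjured and 22.2 and 38.5 CPM on day 3. No summed set of nuclei gave a change of Il1rap that passed: immune 1.05 ± 0.76 (SE) with an adjusted p of 1.00, and endothelial 0.59 ± 0.51 with 0.648, both log2 by edgeR. The genes nearest to it in pattern, Stat4 (r = 0.52), Stk10 (0.51) and Disp1 (0.51), were less alike than those of the other members.

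The antagonist Il1rn and the ligand Il1a were rare. Of 66 Il1rn UMIs, 27 were in Arg1/Gpnmb macrophage-like nuclei, marked also by Spp1 and Hmox1. Their level was 30.1 CPM (1 UMI) in uninjured library 2, 0 and 11.9 CPM (9 UMIs) on day 3, 53.9 CPM (16 UMIs, interval 30.8 to 87.6) on day 5 and 23.6 CPM (1 UMI) on day 7. Genes nearest to Il1rn were Slamf7 (r = 0.63), Clec4d and C5ar1 (both 0.61). Il1a had 18 UMIs in all, of which 17 were in day 3 library 2, with 10 in Mrc1-high macrophage-like and 5 in Ccr2 monocyte/APC-like nuclei. Neither gene passed the low-count filter in any summed set.

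**Figure D4:**
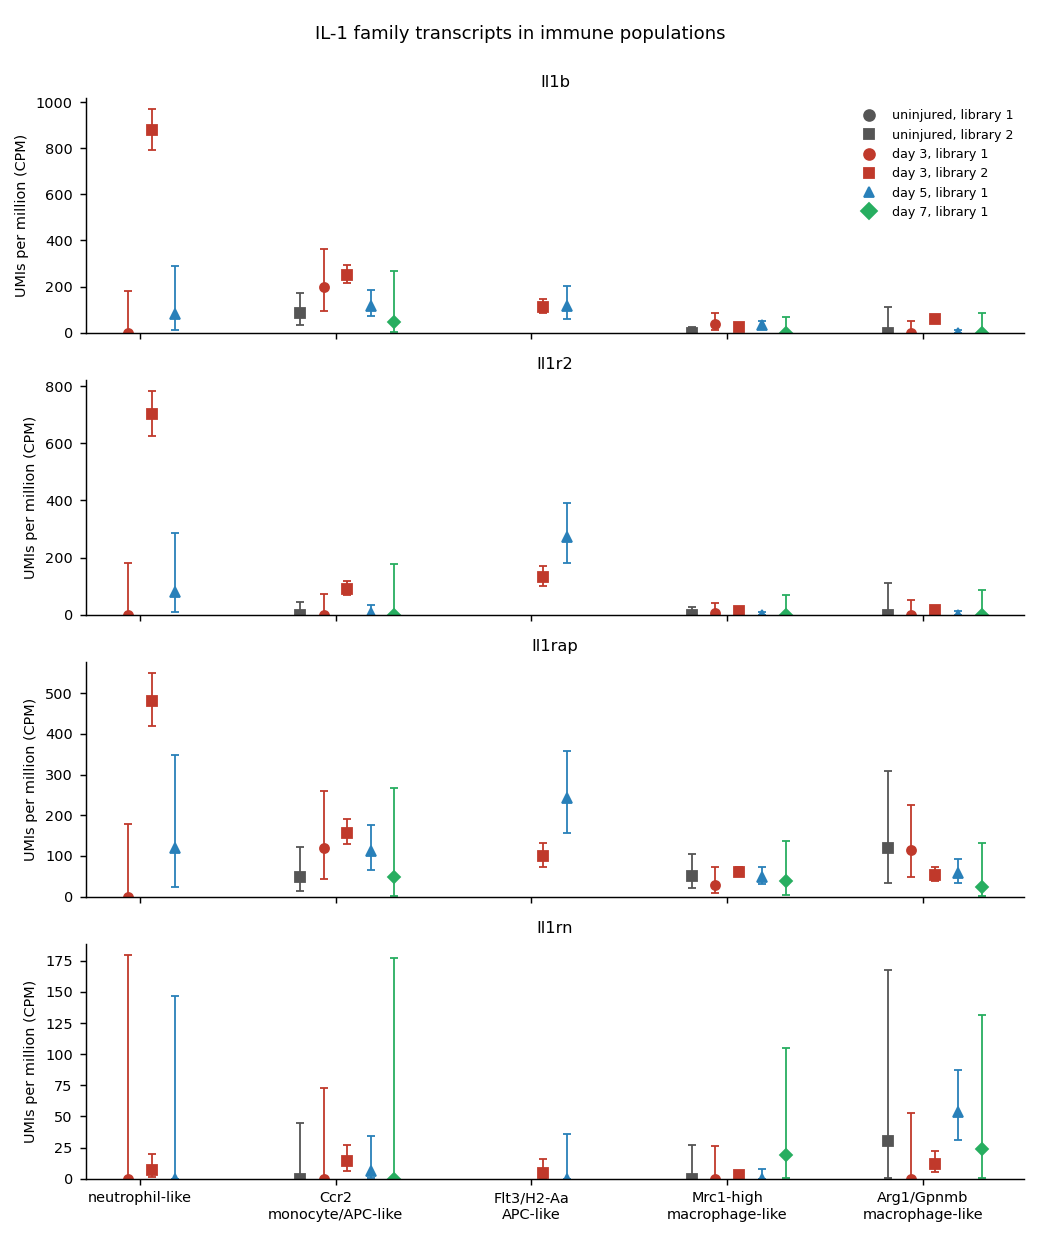
Levels of Il1b, Il1r2, Il1rap and Il1rn, in UMIs per 1000000 (CPM), in 5 immune populations. Each point is 1 library with at least 20000 UMIs in that population, with a 95% exact Poisson interval. In neutrophil-like nuclei of day 3 library 2, Il1b stands at 879, Il1r2 at 701 and Il1rap at 481, while day 3 library 1 has 0 UMIs of each in 8 nuclei.

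Immune nuclei as a whole gave no call among the members. Of the 3 members tested there, 0 passed by edgeR or by DESeq2, with 2 at an unadjusted p under 0.05 by edgeR (Il1rl1 and Il1b), and 0.834% of 5154 genes were called, 0.0388% higher and 0.795% lower. Of the 2 tested in endothelial nuclei, 0 passed by either tool and 0 had an unadjusted p under 0.05 by edgeR, against 3.72% of 6831 genes called, 1.73% higher and 1.99% lower. Over all non-myogenic nuclei 7 members were tested, and 1 was called, higher, against 8.56% of all genes, 2.69% higher and 5.87% lower. Uninjured library 1 contributed 17 immune nuclei to this comparison.

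Genes known to respond to IL-1 were taken as a list of 28, of which 17 passed the low-count filter in stromal nuclei. There, 6 were called higher and 0 lower, against 3.49% and 4.85% of all genes tested. The median log2 fold change was 1.45, beside 0.01 over all genes. Uninjured library 1 held 0 UMIs of Cxcl5, Ccl2, Cxcl1 and Ccl7, and uninjured library 2 held 3, 1, 2 and 10. Such genes passed the low-count filter through the day 3 libraries and so could only be called higher. The list was also chosen with earlier results of these data known, and these counts are a description. Neutrophil markers moved with the responsive genes, at 8.58 and 5.31 CPM in the uninjured and 17.1 and 142 CPM in the day 3 stromal sums. The part of RNA from neutrophil-like or other immune nuclei in the levels of responsive genes was not tested. Cxcl5, a neutrophil-attracting chemokine, was 0 and 1.77 CPM uninjured, 151 and 194 CPM on day 3, 3.94 on day 5 and 4.06 on day 7, with a log2 fold change of 6.69 ± 0.60 (SE) and an adjusted p of 0.00144 by edgeR. Ccl2, which attracts monocytes, was 0 and 0.59 CPM uninjured, 19.2 and 61.8 on day 3, 3.12 on day 5 and 0.58 on day 7 (log2 fold change 6.01 ± 1.02 SE, adjusted p = 0.0104 by edgeR). Both chemokines were confined largely to day 3. Ptgs2, which encodes cyclooxygenase-2, instead stayed high: 4.29 and 4.13 CPM uninjured, 29.9 and 69.0 on day 3, 74.9 on day 5 and 95.7 on day 7. Cxcl1 (4.55), Ccl7 (3.48) and Vcam1 (2.55) were also called higher on the log2 scale.

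**Figure D5:**
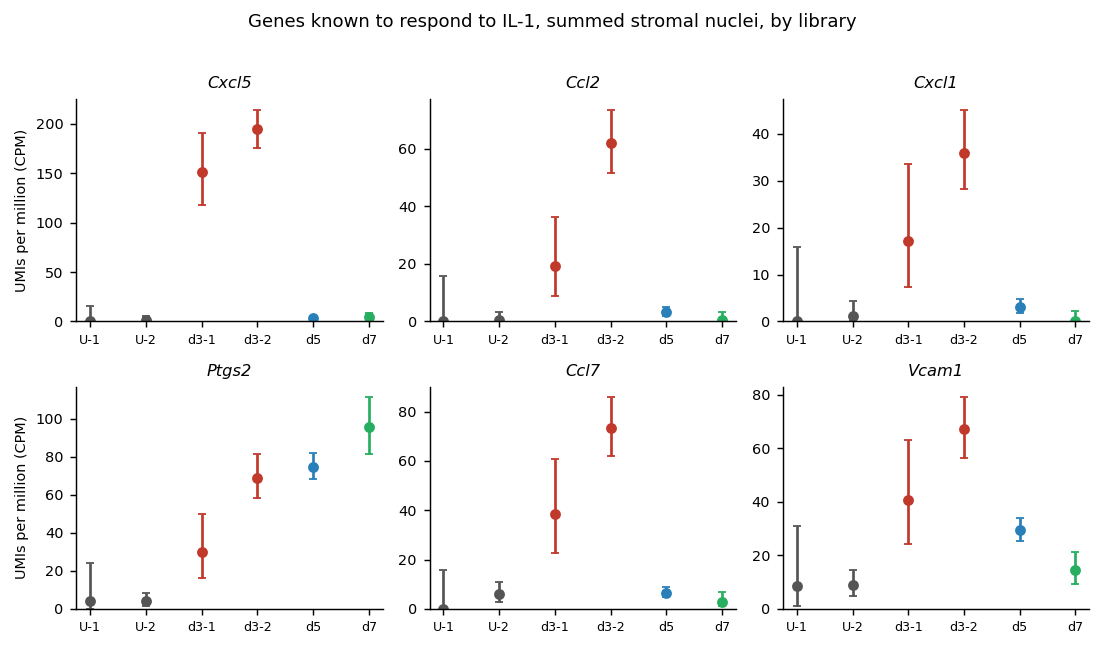
Levels, in UMIs per 1000000 (CPM), of the 6 genes known to respond to IL-1 that were called higher on day 3, summed over stromal nuclei in each library (U-1 and U-2 uninjured, d3-1 and d3-2 day 3, d5, d7). Error bars are 95% exact Poisson intervals. Cxcl5 stands at 151 and 194 on day 3 and at or below 4.06 in the other libraries, while Ptgs2 stays at 74.9 and 95.7 on days 5 and 7.

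The change of Vcam1, a leukocyte adhesion molecule, differed between endothelial and stromal nuclei, at −3.57 ± 0.72 (SE) on the log2 scale for endothelial minus stromal (edgeR adjusted p = 0.00132). Of the 15 responsive genes tested for that difference, it was the 1 that passed. Among 6 processing genes 1 passed, Casp4, a caspase of the inflammasome pathway, at −1.58 ± 0.48 (SE, adjusted p = 0.0466 by edgeR), and 0 of 25 signalling and 0 of 3 other superfamily genes did. In immune nuclei 0 of 7 and in endothelial nuclei 0 of 7 responsive genes passed by edgeR. Over all non-myogenic nuclei 5 of 23 were called higher, among them Cxcl2 (log2 fold change 5.48), and 0 lower. Cxcl2 had 0 and 1 UMIs in the uninjured libraries, so it too could only be called higher.

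Of the 27 IL-1 receptor signalling genes, all were tested in stromal nuclei, and 2 were called lower and 0 higher, a share near the 4.85% and 3.49% of all genes, with a median of −0.01 on the log2 scale. Irak3, an inhibitory kinase of the pathway, was 275 and 251 CPM uninjured and 100 and 70.5 CPM on day 3 (log2 fold change −1.67 ± 0.38 SE, adjusted p = 0.0285 by edgeR). Peli2, a ubiquitin ligase acting on IRAK1, was 386 and 467 CPM uninjured, 124 and 149 on day 3, 111 on day 5 and 131 on day 7, and it was also called lower in endothelial nuclei and over all non-myogenic nuclei, at −1.58 and −2.17. Among 15 genes of IL-1 processing, 7 were tested, 0 were called lower and 2 were called higher, the inflammasome sensors Nlrp1b (0 and 1.77 CPM uninjured, 21.3 and 27.8 on day 3, log2 fold change 3.90) and Mefv (0 UMIs uninjured, 10.7 and 12.0 CPM on day 3). In the uninjured libraries Nlrp1b had 0 and 3 stromal UMIs and Mefv 0 and 0, so both could only be called higher. The part of RNA from neutrophil-like or other immune nuclei in these inflammasome values was not tested either.

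The other IL-1 superfamily genes numbered 16, of which 4 were tested in stromal nuclei. Il1rapl1, a synaptic adhesion relative of Il1rap and not a cytokine receptor chain by its known role, was 1257 and 213 CPM uninjured and 10.7 and 6.23 CPM on day 3 (log2 fold change −6.68 ± 0.94 SE, adjusted p = 0.00514 by edgeR). It was among the leading genes of the fibroblast-like cluster (Luzp2), which made up 27.3% and 9.77% of stromal nuclei in the uninjured and 2.05% and 1.71% in the day 3 libraries, so that fewer such nuclei and less RNA per nucleus cannot be told apart. Il18rap, the accessory chain of the IL-18 receptor, was called higher over all non-myogenic nuclei, at 2.19 and 4.15 CPM uninjured, 40.0 and 48.7 CPM on day 3, 6.50 on day 5 and 2.43 on day 7 (log2 fold change 3.64 ± 0.49 SE, adjusted p = 0.0223 by edgeR). In immune nuclei 0 of 3 other superfamily genes, 0 of 7 processing genes and 0 of 24 signalling genes passed by edgeR. In endothelial nuclei 0 of 3 processing genes passed, and over all non-myogenic nuclei 1 of 12 did, Mefv at 4.07 on the log2 scale.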

How the data were processed

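Nuclei were isolated from dissected periosteum, or periosteum with hematoma, sorted and captured with 10x Genomics chemistry. The authors deposited UMI counts per gene and barcode from Cell Ranger (6.0.0 or 7.1.0), with reads mapped to mm10, introns and exons included, and without normalization. Of 13551 barcodes, 8067 had 200 to 5000 genes, under 2% mitochondrial and under 1.5% ribosomal UMIs. Libraries were integrated in Seurat 5.3.0 (R 4.3.3) on 2000 features and 20 dimensions. Myogenic clusters were removed in 3 steps: 991 nuclei in each library by itself, 690 after a first joint clustering and, from the 6386 nuclei clustered again at resolution 1.3, another 315. Scrublet (scanpy 1.11.5, Python 3.11.15) marked 20 barcodes, under 0.5%, and so has not worked as a doublet caller; none were removed.

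Members, lists and markers were chosen with earlier results of these data known. All 9 members are named, plus list genes past the threshold, at most 8 per list and comparison, and the 3 genes most alike in log2(CPM + 10) for members with at least 50 UMIs. Clusters needed 3 detected markers to be named. The names Fgf7/Bmper, Gm42418 (left unnamed) and the grouping into sets were settled after the clusters were seen. Raw UMIs were summed per library, and day 3 was tested against uninjured with edgeR 4.0.16 (quasi-likelihood test, TMM, low-count filter, Benjamini-Hochberg over all genes tested, threshold 0.05). DESeq2 1.42.0 was an alternative. Scripts were tested on simulated data. Levels are UMIs per 1000000 (CPM) with exact Poisson intervals at 95%, and shares are after thinning nuclei to 500 UMIs with Clopper-Pearson intervals. A group at 0 was set to a floor of 3 UMIs. Alternatives were another filter, resolution 0.8, other size factors, no low-count filter and leaving out each replicate. The alternatives without an upper gene limit, without the top 6% of doublet scores, and with single populations or without neutrophil-like nuclei were chosen after seeing the data. All count columns were used. Il1rap levels in 1 small population are not reported here.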

Additional observations from a re-analysis of the deposited data

Results flagged for a closer look

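The day 3 change of 3 members differed between endothelial and stromal nuclei by the tested interaction (endothelial minus stromal, log2 scale, edgeR). It was −2.31 for Il1r1, where stromal nuclei rose from 133 and 389 to 1587 and 1323 CPM and endothelial nuclei went from 568 and 653 to 747 and 824 CPM. It was −7.30 for Il33, with 14 and 14 endothelial UMIs in uninjured and 0 and 0 in day 3 libraries. It was 4.28 for Il1r2, where 17 of the 18 day 3 endothelial UMIs were in day 3 library 2. The Il1r2 call was lost without that library or without uninjured library 2. Neither Il33 nor Il1r2 passed the low-count filter in endothelial nuclei alone.

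Signal also appeared in barcodes that the filter left out. In day 3 library 2, the 393 barcodes with more than 5000 genes held Il1r1 at 635 CPM (9329 UMIs) and Il33 at 35.3 CPM (519 UMIs), and the 6 such barcodes of uninjured library 2 held 511 CPM and 0 UMIs. In the day 7 library, 511 barcodes in a cluster led by Ttr and Trpm3 held Il1rap at 169.73 CPM (69 UMIs). In uninjured tissue 1 barcode fell in that cluster, with 0 Il1rap UMIs.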

How the results depend on the processing

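Uninjured library 1 held 17 immune nuclei. Where 1 library was left out, its group had 1 sample, which was assumed to vary like the others. No paired analysis was possible because replicate numbers follow only the order of accessions. The causes of the changes below were not tested.

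The stromal count of 837 genes became 1418 without the low-count filter, 170 for SSPC-like nuclei alone and 290 to 970 with 1 library left out (290 without uninjured library 2). The count of 1079 over all non-myogenic nuclei became 1666 with DESeq2, 2598 without the filter and 191 to 1144 with 1 library left out (191 without uninjured library 1, 324 without day 3 library 2). The immune count of 43 became 13 with DESeq2, 13 under the looser filter (under 5% mitochondrial, no ribosomal limit), 18 without an upper gene limit, 26 without the top doublet scores, 14 without neutrophil-like nuclei and 0 to 6 with 1 library left out (the 3 counts of 0, by edgeR, had 200 to 1314 genes at an unadjusted p under 0.05). The endothelial count of 254 became 718 without the low-count filter, 449 without an upper gene limit, 12 for venous nuclei alone and 0 to 480 with 1 library left out (0 without uninjured library 1 by edgeR, with 842 genes at an unadjusted p under 0.05, 480 without uninjured library 2, 48 and 27 without day 3 library 1 and 2). The count of 418 genes whose change differed became 134 with DESeq2 and 193 to 457 with 1 library left out.

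Stromal Il1r1 kept its call in 13 of 14 alternatives (1.88 to 3.44 on the log2 scale with 1 library left out), stromal Il1rl2 in 9 of 14 (−2.06 to −0.94), and Il1b over all non-myogenic nuclei in 11 of 13 (4.13 to 10.61). The endothelial minus stromal difference of Il1r2 kept it in 9 of 11 (3.53 to 6.84). Changes that had not passed turned sign for stromal Il1r2 (−0.62 to 0.20 with 1 library left out) and, over all non-myogenic nuclei, for Il1rl2 (−1.47 to 0.28), Il33 (−0.53 to 1.44) and Il1rap (−0.48 to 0.46, −0.017 without an upper gene limit and −0.21 without neutrophil-like nuclei). Of 90 levels compared, 22 moved beyond their interval under the looser filter, 24 without an upper gene limit, 12 at resolution 0.8 and 2 without the top doublet scores. As a ratio to the main level, they ran from 0.174 to 2.37 under the looser filter and from 0.0392 to 4.04 without an upper gene limit. At resolution 0.8 they ran from 0.208 to 3.23.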
